A study of Mus musculus with 8 samples.

Results

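Gpnmb, galectin genes and a few genes of related secreted or shed proteins were followed in microglia that lack multifunctional protein-2 (MFP2). The group held 9 genes chosen by symbol, of which 8 had a probe set annotated to that gene alone, out of 19938 such genes on the array: Gpnmb, Lgals1, Lgals3, Lgals3bp, Lgals8, Lgals9, Dkk2 and Mamdc2. Spp1, which encodes osteopontin, had no such probe set and is not analysed here. Each of the 8 genes was read by 1 probe set. Microglia, the resident macrophages of the brain, were sorted as CD11b high and CD45 intermediate cells from whole brains taken at 17 weeks from Swiss Webster mice that were all labelled female. The 4 MFP2 knockout samples were labelled with the genotype MFP2 knockout, and the 4 control samples with the genotype wild type. The labels do not state how the allele was made or whether each sample was a separate animal, and the p-values reflect sample-to-sample spread only, which may be technical. MFP2 is an enzyme of peroxisomal beta-oxidation, which shortens very long-chain fatty acids, and the comparison addresses how its loss alters the microglial transcriptome.

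GPNMB is a membrane glycoprotein of macrophages and pigment cells whose outer part can be shed, and which carries an integrin-binding motif. Galectins are small lectins that bind beta-galactoside sugars. They are made in the cytosol, leave the cell by an unconventional route and also bind the sugars of damaged lysosomes from within. Galectin-3 binding protein, encoded by Lgals3bp, is a secreted glycoprotein that galectin-3 recognises. Dickkopf-2, encoded by Dkk2, is a secreted antagonist or modulator of Wnt receptors, and Mamdc2 encodes a secreted proteoglycan.

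Values are log2 expression values of the array, so a difference of 1 is a 2-fold difference, and changes are compared between samples for the same gene. A gene's place relative to the array median, and sums over marker genes, serve only to describe signal, since probe sets differ in response. The array medians over the 19938 genes lay between 6.19 and 6.29. The gene of MFP2, Hsd17b4, was reduced in all 4 knockout arrays relative to all 4 controls, by a log2 change of -2.88 ± 0.44 (SE, limma adjusted p = 0.00158). Knockout 2 kept the highest knockout value of Hsd17b4, at 7.20 against 4.76 to 5.21 in the others. Control 1 did not match its female label: it had an Xist value of 6.80, against 10.82 to 10.99 in the other controls, and an Eif2s3y value of 8.14, against 2.78 to 2.99. The microglial markers P2ry12, Tmem119, Cx3cr1, Sall1, Siglech, Olfml3, Csf1r, Fcrls, Gpr34 and P2ry13 read between 8.79 and 12.83 on every array, above all array medians.

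In knockout microglia 3 of the 8 measured genes rose (Gpnmb, Lgals3bp and Lgals3) and 1 fell (Lgals8), while Lgals1, Lgals9, Dkk2 and Mamdc2 did not pass the test. Gpnmb changed most, 6.62-fold, followed by Lgals3bp, 3.05-fold, and Lgals3, 2.01-fold. A gene was called when its adjusted p was under 0.05 in limma's moderated test, with Benjamini-Hochberg adjustment over all 19938 genes. Over all genes, 5.38% were called higher and 4.17% lower, or 9.55% in either direction. These shares include dim genes. With the genes of mean below the median left out, 1109 genes were called higher and 929 lower from fewer tested, a larger share. The median log2 change was 0.14 over the 8 genes and -0.02 over all genes. The groups did not overlap for the 4 called genes, nor for 14.0% of all genes. Because RNA came from sorted cells in bulk, fewer cells that express a gene and less RNA of it per cell cannot be told apart.

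**Figure D1:**
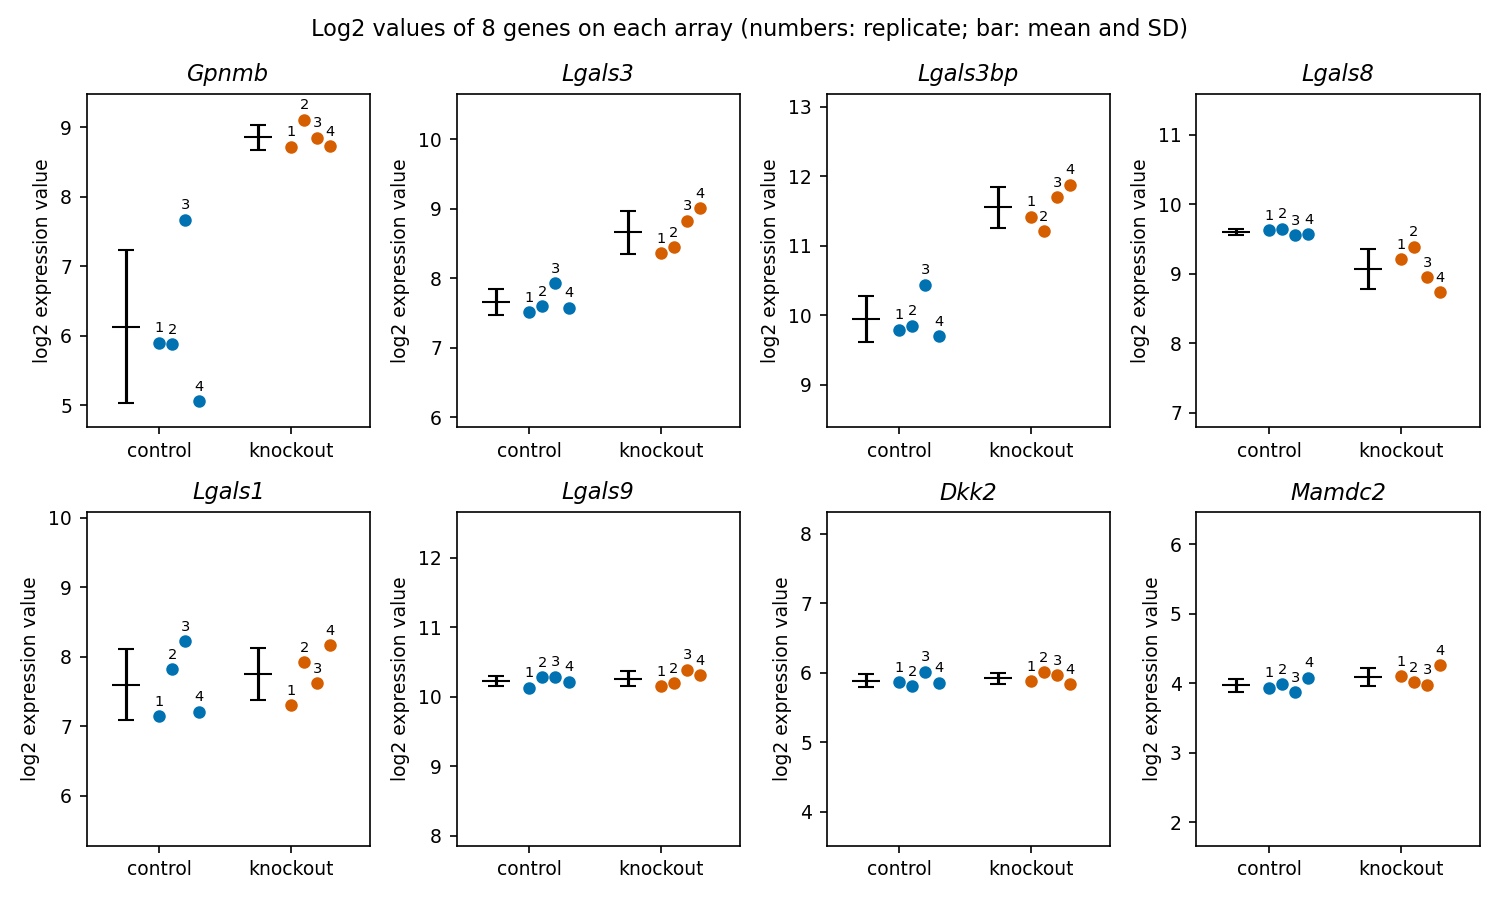
Log2 expression value (vertical axis, the same span of values in every panel) of the 8 measured genes in the 4 control arrays (blue) and 4 knockout arrays (orange); digits are replicate numbers and the black bar is the mean with SD. Gpnmb, Lgals3 and Lgals3bp lie higher in every knockout array and Lgals8 lower, and control 3 has the highest control value of the first 3.

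Gpnmb stood at 5.90, 5.88, 7.67 and 5.06 in controls 1 to 4. In knockouts 1 to 4 it stood at 8.72, 9.11, 8.85 and 8.73. All knockout arrays lay within 0.39 of each other, whereas the controls spread over 2.61, with control 3 highest and control 4 lowest. The lowest knockout value still exceeded control 3 by 1.05. Controls 1, 2 and 4 lay below all array medians (6.19 to 6.29). At low signal the array compresses differences, so the size of the change may be understated. The mean rose from 6.13 ± 1.10 (SD, n = 4) to 8.85 ± 0.18, a log2 change of 2.73 ± 0.40 (SE, 95% confidence interval 1.86 to 3.60, limma adjusted p = 0.00113). That change ranked 7 among the 19938 genes. Without control 3 the change was 3.24, and without control 4 it was 2.37, both called.

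Lgals3 encodes galectin-3, a galectin with a single sugar-binding domain and a tail through which molecules assemble, released by activated macrophages. Its values were 7.51, 7.60, 7.93 and 7.58 in controls 1 to 4 and 8.36, 8.45, 8.83 and 9.01 in knockouts 1 to 4. Every knockout array lay above every control array, with a gap of 0.43 between control 3 and knockout 1. The log2 change was 1.01 ± 0.15 (SE, 95% confidence interval 0.69 to 1.33, limma adjusted p = 0.00111), or rank 187 of all genes.

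Lgals3bp, the partner that galectin-3 binds, showed a larger step. It read 9.79, 9.85, 10.44 and 9.70 in controls 1 to 4. In knockouts 1 to 4 it read 11.42, 11.21, 11.70 and 11.88. The groups were separated by 0.77, with control 3 again the highest control and knockout 2 the lowest knockout. The log2 change of 1.61 ± 0.17 (SE, 95% confidence interval 1.23 to 1.99, limma adjusted p = 0.00029) ranked 58.

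Lgals8 encodes galectin-8, a galectin with a pair of different sugar-binding domains that marks damaged lysosomes and endosomes for autophagy. Its control values were tightly grouped at 9.63, 9.65, 9.56 and 9.57 in controls 1 to 4. Its knockout values were 9.21, 9.39, 8.95 and 8.74 in knockouts 1 to 4, all lower and more spread, with knockout 2 closest to the controls. The mean fell from 9.60 ± 0.05 (SD, n = 4) to 9.07 ± 0.29, a log2 change of -0.53 ± 0.13 (SE, 95% confidence interval -0.81 to -0.26, limma adjusted p = 0.0189), or 1.45-fold. The call was lost without control 1 (limma adjusted p = 0.0526), without control 2 (0.0594) or without knockout 3 (0.0639), at log2 changes of -0.52, -0.51 and -0.49.

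Lgals1 encodes galectin-1, a small galectin that works as a dimer and is made by many cell types. It spread widely in both groups, at 7.14, 7.82, 8.22 and 7.21 in controls 1 to 4 and 7.30, 7.92, 7.62 and 8.16 in knockouts 1 to 4. The groups overlapped over most of their range. The difference was 0.15 ± 0.24 (SE) on the log2 scale, with a 95% confidence interval of -0.36 to 0.67 (limma adjusted p = 0.800). This interval does not exclude a change of up to 1.59-fold upwards. The difference was -0.00051 without control 1.

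Lgals9 encodes galectin-9, a ligand of the inhibitory receptor TIM-3, and varied little between arrays. Its values lay between 10.13 and 10.29 in controls, at 10.13, 10.28, 10.29 and 10.22. In knockouts 1 to 4 they were 10.15, 10.20, 10.39 and 10.31. The groups overlapped, and the difference of 0.03 ± 0.09 (SE) had a 95% confidence interval of -0.16 to 0.23 on the log2 scale (limma adjusted p = 0.896). The sign turned without control 1 (-0.0014) and without knockout 3 (-0.01).

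The other secreted proteins showed low signal. Dkk2 read 5.87, 5.81, 6.02 and 5.86 in controls 1 to 4 and 5.88, 6.01, 5.97 and 5.84 in knockouts 1 to 4, below the array medians throughout. Its difference was 0.03 (95% confidence interval -0.15 to 0.22, limma adjusted p = 0.889). Mamdc2 read 3.94, 3.99, 3.87 and 4.08 in controls 1 to 4 and 4.10, 4.02, 3.98 and 4.26 in knockouts 1 to 4, on every array within the lowest 25% of genes. Its difference was 0.12 (95% confidence interval -0.08 to 0.32, limma adjusted p = 0.535). At such low signal the array compresses differences, so a change of these genes may be understated.

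**Figure D2:**
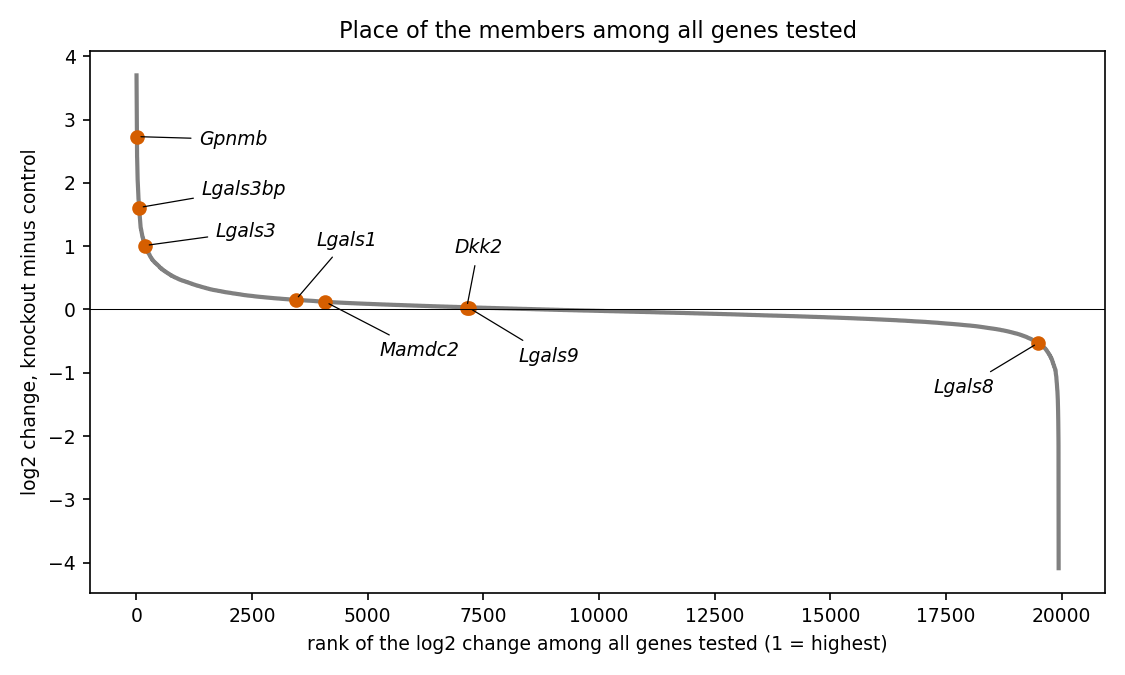
Log2 change, knockout minus control (vertical axis), of all 19938 genes in order of their change (grey line; horizontal axis, rank), with the 8 measured genes as orange points. Gpnmb, Lgals3bp and Lgals3 stand at ranks 7, 58 and 187 and Lgals8 near the low end, while the other 4 lie on the flat middle part.

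The galectins changed unequally. The difference between 2 galectins on the same array was compared between the groups by a two-sided exact permutation test, for all 6 pairs of Lgals1, Lgals3, Lgals8 and Lgals9. The change of Lgals3 exceeded that of Lgals8 by 1.54, that of Lgals9 by 0.98 and that of Lgals1 by 0.86 on the log2 scale, and the change of Lgals8 was below that of Lgals9 by 0.56. Each of these 4 pairs gave an exact permutation p = 0.0286, the smallest that 4 against 4 arrays allow, and 0.0429 after Benjamini-Hochberg adjustment over the 6 pairs. All 4 pairs hold Lgals3 or Lgals8, whose calls rest on the same values, so the pairs add no independent support. Lgals1 against Lgals8 gave an exact permutation p = 0.171 (adjusted 0.206) and Lgals1 against Lgals9 an exact permutation p = 0.629 (adjusted 0.629).

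Single arrays took like places in several of these genes. Control 3 was the highest control array in Gpnmb, Lgals3 and Lgals3bp, as it was in 55.1% of the 1073 genes called higher. Knockout 4 was the highest knockout array in Lgals3 and Lgals3bp and the lowest in Lgals8, places it held in 53.7% of the genes called higher and 25.6% of the 832 called lower. In Gpnmb the highest knockout array was knockout 2, a place it held in 6.99% of the genes called higher. Without control 3 and knockout 2 the log2 changes were 3.15 for Gpnmb, 1.89 for Lgals3bp, 1.17 for Lgals3 and -0.65 for Lgals8. Without control 1 as well they were 3.30, 1.89, 1.14 and -0.65, all called. Control 3 was the control nearest the knockouts in these genes, and knockout 2 the knockout nearest the controls in Lgals3bp and Lgals8. Leaving them out enlarges the changes (2.73, 1.61, 1.01 and -0.53 with all arrays), so these calls are no independent check. Without knockout 4 the changes were 2.77, 1.50, 0.89 and -0.42, all called.

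Markers of other brain and blood cells were read on the same arrays, and their part in the changes of these genes was not tested. Among 10 measured microglial markers 9 were lower and 0 higher, with Fcrls not called. The summed linear level of the microglial markers was 38737 to 44907 in controls and 25005 to 29896 in knockouts. Of 10 markers of brain-border macrophages, Mrc1, Lyve1, Pf4 and F13a1 fell and Ms4a7 and Siglec1 rose. In this list 9 had an unadjusted p under 0.05 in either direction, and the median log2 change was -0.58. Mrc1 (log2 change -1.55) and Pf4 (-1.30) kept their calls with each array left out in turn. The summed linear level of the 10 markers was 859 to 1288 in controls and 767 to 1151 in knockouts. The calls of some of these markers were lost in the limma fit with 1 array left out: that of Lyve1 with adjusted p = 0.0602 for control 1, 0.0689 for control 2, 0.0769 for knockout 3 and 0.0588 for knockout 4, and that of Siglec1 with 0.0577 for control 1, 0.0823 for control 2, 0.0868 for control 4 and 0.0698 for knockout 3. F13a1 lost its call for any 1 of 5 arrays, controls 1, 2 and 3 and knockouts 1 and 3, with limma adjusted p from 0.0543 to 0.0900. Siglec1 (0.0923) and Fn1 (0.0855) also lost theirs under limma's robust prior with an intensity trend. The microglial gene Csf1r lost its call with limma adjusted p = 0.0587 for control 1, 0.0529 for control 2 and 0.0708 for knockout 3. Of 6 measured monocyte markers Fn1 rose by 2.56 and Ccr2 fell by 0.59 on the log2 scale, with summed levels of 563 to 965 and 714 to 3285. Vcan, of the same list, lay in the lowest 25% of genes on every array. Plac8 (6.58 to 8.95), Itga4 (6.80 to 7.76) and Fn1 (6.30 to 11.19) lay above the array medians on every array. None of 9 neutrophil markers was called by limma, 0 of them at an unadjusted p under 0.05. Their summed level was 2987 to 19661 in controls and 7109 to 12608 in knockouts, and Elane had the lowest p (adjusted p = 0.406). Some neutrophil markers gave high signal: S100a8 read 9.86 to 12.59 in controls and 11.20 to 12.12 in knockouts.

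Lymphocyte markers gave no call among 9 by limma, with 1 at an unadjusted p under 0.05 (Cd3g, log2 change 1.02, limma adjusted p = 0.0859), and summed levels of 610 to 885 in controls and 803 to 1117 in knockouts. Neuron markers gave none among 7, with 1 at an unadjusted p under 0.05 (Snap25, 0.35, limma adjusted p = 0.149), at summed levels of 287 to 323 and 305 to 345. Of 7 dendritic cell markers Cd209a fell by 0.79 (summed levels 519 to 770 and 537 to 699). Of 6 astrocyte markers Gfap rose by 1.28 (652 to 762 and 700 to 762). Mbp and Cspg4 rose among 6 oligodendrocyte and precursor markers (439 to 472 and 521 to 631), and Flt1 rose by 1.99 among 8 vascular markers (477 to 568 and 560 to 750). Cd209a lost its call in the limma fit with adjusted p = 0.0588 on leaving out control 1, 0.0567 for control 3 and 0.0607 for knockout 3. Cspg4 lost it with adjusted p = 0.0598 for control 2, 0.0639 for knockout 3 and 0.0519 for knockout 4. The lymphocyte markers Ncr1 and Ms4a1, the dendritic cell markers Xcr1 and Clec9a and the mural cell marker Rgs5 lay in the lowest 25% of genes on every array. The lymphocyte markers Cd3e (6.82 to 8.11) and Cd79b (7.39 to 8.34) lay above the array medians on every array. So did the dendritic cell markers H2-Ab1 (7.03 to 8.31) and Ccr7 (6.81 to 7.37), and Col1a1 (6.51 to 6.92) of the vascular list. The astrocyte marker Slc1a3 (8.61 to 9.10) and the oligodendrocyte markers Mbp (7.04 to 7.96) and Mag (6.45 to 6.92) also lay above them throughout.

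Sequence just before the gene starts is shown for the 3 genes that rose, and for Lgals9, whose window holds the only match found. The RefSeq promoter table of the GRCm38.p6 build matched 6 of the 8 measured genes, and the 250 bases before the start are printed 5′ to 3′ on the strand of the gene. Positions are chr6:49036268-49036517 for Gpnmb (plus strand), chr14:47373610-47373859 for Lgals3 (plus strand), chr11:118401960-118402209 for Lgals3bp (minus strand) and chr11:78984925-78985174 for Lgals9 (minus strand). Capitals mark a match to a searched motif.
Gpnmb: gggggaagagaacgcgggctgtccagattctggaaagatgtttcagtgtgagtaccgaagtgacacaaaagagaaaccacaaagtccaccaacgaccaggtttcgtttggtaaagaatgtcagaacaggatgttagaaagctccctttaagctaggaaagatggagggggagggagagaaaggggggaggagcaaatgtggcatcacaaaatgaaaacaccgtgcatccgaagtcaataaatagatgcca
Lgals3: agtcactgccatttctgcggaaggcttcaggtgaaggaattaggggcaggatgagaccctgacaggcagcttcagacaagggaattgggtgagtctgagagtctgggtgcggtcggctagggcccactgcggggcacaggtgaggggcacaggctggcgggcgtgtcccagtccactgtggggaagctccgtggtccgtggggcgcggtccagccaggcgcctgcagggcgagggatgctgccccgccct
Lgals3bp: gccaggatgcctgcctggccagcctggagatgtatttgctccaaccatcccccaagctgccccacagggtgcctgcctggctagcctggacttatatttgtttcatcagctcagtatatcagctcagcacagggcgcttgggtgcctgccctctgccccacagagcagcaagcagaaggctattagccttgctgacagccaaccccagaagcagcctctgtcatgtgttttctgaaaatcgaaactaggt
Lgals9: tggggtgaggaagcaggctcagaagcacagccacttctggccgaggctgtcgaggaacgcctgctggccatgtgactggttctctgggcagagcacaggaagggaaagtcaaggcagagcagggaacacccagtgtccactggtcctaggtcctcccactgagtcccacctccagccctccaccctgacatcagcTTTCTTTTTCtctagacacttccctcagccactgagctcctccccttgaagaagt
The motifs searched on both strands were CACGTG, an E-box of MITF and TFE factors, TGANTCA of AP-1, the interferon response element and TTCNNNGAA of STAT factors. Other forms of these motifs were not searched. The searched motifs occur in 6.02%, 6.75%, 2.98% and 7.02% of the 32851 promoters of that table. None of the searched motifs was found in the windows of Gpnmb, Lgals3, Lgals3bp, Lgals8 or Dkk2. The Lgals8 window lies inside the annotated span of its gene, and the Dkk2 window runs past the start of that gene's span. Lgals9 held 1 match to the interferon response element on the opposite strand, TTTCTTTTTC, from base 55 to base 46 before the start. The windows also differed in base composition, with a GC content of 47.2% in Gpnmb, 66.0% in Lgals3, 55.6% in Lgals3bp and 58.4% in Lgals9, against a median of 52.4% over all promoters. A match is a description of letters, and no match says only that these letters are not in this window.

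Other galectin-family genes showed no call. Of 7 such genes 6 were measured, Lgals2, Lgals4, Lgals7, Lgals12, Lgalsl and Grifin, with log2 changes from -0.11 to 0.13. By limma 0 passed, and 0 had an unadjusted p under 0.05. Lgalsl, a galectin-like gene, had the lowest p, at 6.94 ± 0.07 (SD, n = 4) in controls and 7.07 ± 0.08 in knockouts (limma adjusted p = 0.462).

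Receptors and processing enzymes of GPNMB and osteopontin moved in both directions. Of 18 measured genes 4 rose, 3 fell and 11 did not pass the test. The 7 called are 38.9% of the list, against 9.55% of all genes, and the median log2 change was -0.03. The share over all genes includes dim genes, and the list was chosen with earlier results of these data known. Fam20c, the kinase that phosphorylates osteopontin and other secreted proteins, rose from 6.66 ± 0.25 (SD, n = 4) to 8.29 ± 0.44, or 3.11-fold (limma adjusted p = 0.000433). Itga5, the alpha chain of the fibronectin receptor, rose by 0.93 ± 0.10 (SE) and Itga8, another integrin alpha chain that binds RGD motifs, by 0.47 ± 0.10. Itga8 stood at only 4.30 in controls and 4.77 in knockouts, in the lowest 25% of genes on every array. Sdc4, the heparan sulfate proteoglycan syndecan-4 that binds GPNMB on T cells, rose from 7.03 ± 0.21 to 7.64 ± 0.28.

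Of the other integrin chains in the list Itga9, Itgav and Itgb5 fell, while Itga4 (log2 change 0.30, limma adjusted p = 0.368), Itgb1 (-0.02, 0.940), Itgb3 (-0.04, 0.868) and Itgb6 (-0.15, 0.381) did not pass the test. Itga9 was at 8.98, 8.97, 8.46 and 8.85 in controls 1 to 4 and at 7.63, 7.94, 7.46 and 7.63 in knockouts 1 to 4. Its groups did not overlap, and the log2 change was -1.15 ± 0.13 (SE, limma adjusted p = 0.000433). Itgav, the alpha chain of the vitronectin receptors, fell by 0.57 ± 0.10 (SE), and its partner Itgb5 fell by 0.30 ± 0.09 (limma adjusted p = 0.0481). The call of Itgb5 was lost on leaving out any 1 array except control 3 (limma adjusted p = 0.0581 to 0.145), and with arrays centred on their medians (0.07). It was also lost after cyclic loess (limma adjusted p = 0.0581). That of Sdc4 was lost without control 1 (0.0635), control 2 (0.0695), knockout 3 (0.0598) or knockout 4 (0.0522) in the limma fit.

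**Figure D3:**
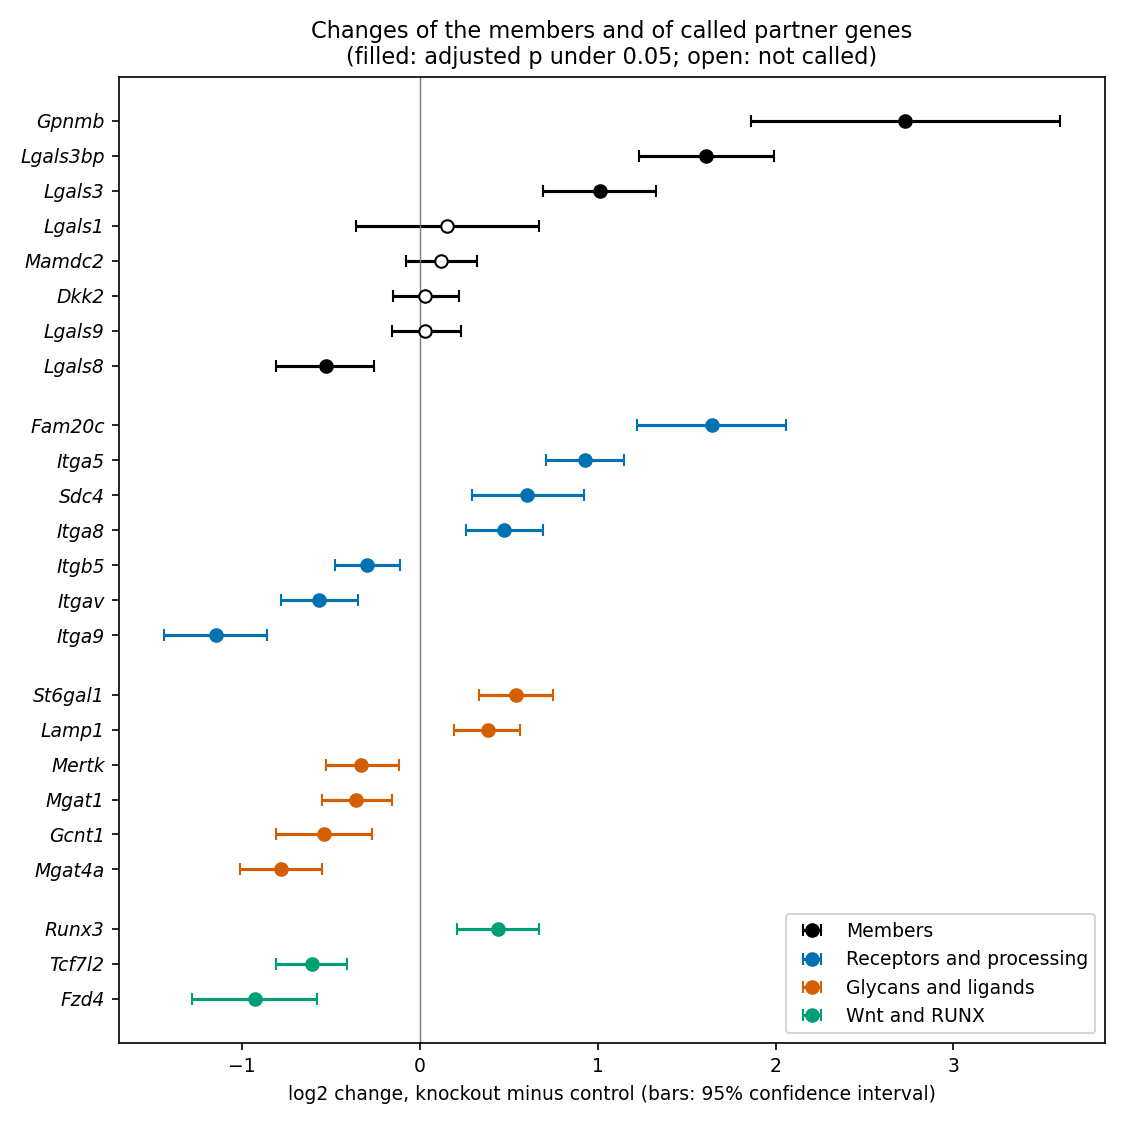
Log2 change, knockout minus control (horizontal axis), with its 95% confidence interval from limma, of the 8 measured genes (black) and of the called genes among their partners: receptors and processing enzymes (blue), glycan enzymes and galectin ligands (orange), and Wnt and RUNX genes (green); filled points passed an adjusted p of 0.05 and open points did not. Gpnmb has the highest change, at 2.73, and Itga9 the lowest, at -1.15.

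Among galectin ligands, glycan-branching enzymes and effectors, 37.5% of the genes were called, against 9.55% of all genes. The share over all genes is a low yardstick here, since 0 genes of this list lay in the lowest 25% on every array. With the genes of mean below the median left out, more genes were called from fewer tested (1109 higher and 929 lower). The list was also chosen with earlier results of these data known. Of 16 measured genes 2 rose (12.5%, against 5.38% of all genes), 4 fell (25.0%, against 4.17%) and 10 did not pass the test, with a median log2 change of 0.07. Mgat4a, an enzyme that adds a branch to N-glycans, fell from 10.43 ± 0.21 (SD, n = 4) to 9.66 ± 0.04, or 1.71-fold (limma adjusted p = 0.00082). Mgat1, the enzyme that starts complex N-glycans, fell by 0.36 ± 0.09 (SE), and Gcnt1, which branches O-glycans, by 0.54 ± 0.13. St6gal1, which caps galactose with sialic acid, rose from 7.94 ± 0.11 (SD, n = 4) to 8.48 ± 0.14 (limma adjusted p = 0.00409). Lamp1, a heavily glycosylated lysosomal membrane protein, rose by 0.38 ± 0.09 (SE), and the phagocytic receptor gene Mertk fell by 0.33 ± 0.09.

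Several of these calls were lost with 1 array left out. In the limma fit the call of Mgat1 was lost on leaving out control 1 (adjusted p = 0.0763), 2 (0.0596) or 4 (0.0695) or knockout 3 (0.0664) or 4 (0.0645). Gcnt1 was lost without control 2 (0.0601) or knockout 3 (0.0598), and Lamp1 without control 1 (0.0529) or knockout 3 (0.0554) and after quantile normalization (0.128). Mertk was lost on leaving out any 1 array except control 3 (0.0517 to 0.148) and with arrays centred on their medians (0.0603). The 4 lower genes became 2 without control 1, 1 without control 2, 2 without control 4 and 1 without knockout 3, and the 2 higher became 1 without control 1 or knockout 3. Mgat4a and St6gal1 were called with every array left out in turn.

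Of 33 measured Wnt inhibitors, receptors and effectors, 0 rose, 2 fell and 31 did not pass the test. The 2 calls are 6.06% of the list, near the 9.55% called over all genes, and the median log2 change was -0.03. Tcf7l2, a transcription factor that acts with beta-catenin, fell from 9.70 ± 0.12 (SD, n = 4) to 9.09 ± 0.08 (log2 change -0.61 ± 0.09, SE, limma adjusted p = 0.00136). Fzd4, a Wnt receptor, fell by 0.93 ± 0.16 (SE, limma adjusted p = 0.00315). The count of higher genes was 0 by limma, and 4 of the 33 had an unadjusted p under 0.05 in either direction.

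Among 7 measured MITF/TFE factors, RUNX factors and the GPNMB paralogue Pmel, 1 rose and 0 fell by limma, or 14.3% against 9.55% of all genes, a difference of less than 1 gene in the list. An unadjusted p under 0.05 was found for 4 of the 7 and for 21.0% of all genes. Runx3, a transcription factor of leukocytes, rose from 6.21 ± 0.10 (SD, n = 4) to 6.65 ± 0.19 (limma adjusted p = 0.0191). It was not called without control 1 (limma adjusted p = 0.0531), control 2 (0.0558) or control 4 (0.0599).

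For each measured gene that changed at least 2-fold, the 3 genes closest in pattern were sought. The measure was the root mean square difference, over the 8 arrays, between the genes' deviations from their own control means, so that genes of like direction and size come first. Closest to Gpnmb were Fabp5, a fatty acid binding protein gene (0.29 log2 units), Cst7, the gene of a cystatin protease inhibitor (0.30), and Axl, a receptor tyrosine kinase gene (0.32). Like Gpnmb they were highest in control 3 and lowest in control 4 among the controls. Control 3 was highest in 55.1% and control 4 lowest in 45.8% of all genes called higher. The log2 changes of Fabp5, Cst7 and Axl were 2.50, 3.04 and 2.53. Closest to Lgals3 were Sec61b, a subunit of the protein-conducting channel of the endoplasmic reticulum (0.08), the nucleoside diphosphate kinase gene Nme2 (0.09) and Hint1 (0.09), with log2 changes of 1.00, 1.02 and 0.91. Closest to Lgals3bp were the beta-glucan receptor gene Clec7a, the syndecan gene Sdc3 and the motor protein gene Myo5a (0.11 each), with log2 changes of 1.59, 1.69 and 1.69. Lgals3bp and these 3 genes were likewise highest in control 3 and lowest in control 4 among the controls. No gene stood among the closest 3 of more than 1 of them. The measure counts the size of the change, which differed among Gpnmb, Lgals3 and Lgals3bp, so this does not show separate patterns. The arrays are few and fall into 2 groups, so the likeness is a description with no test.

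**Figure D4:**
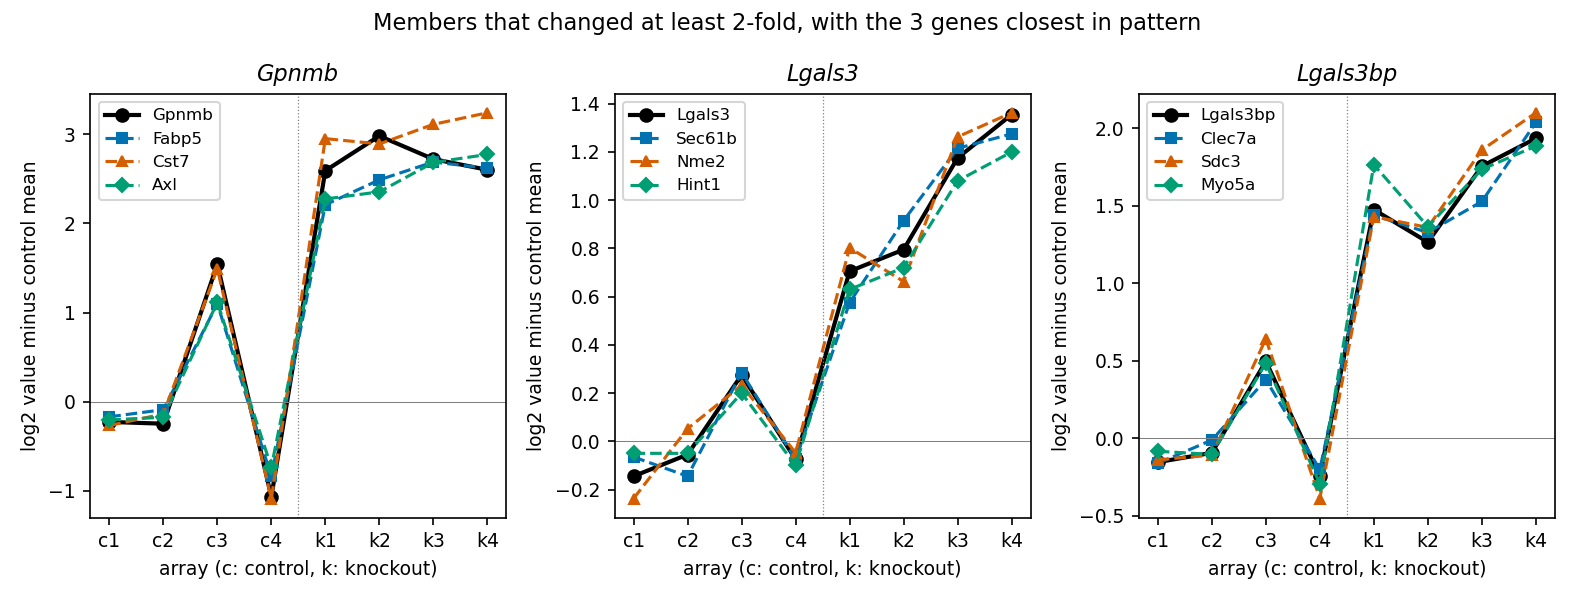
Log2 value minus the gene's own control mean (vertical axis) on the 4 control (c) and 4 knockout (k) arrays, for Gpnmb, Lgals3 and Lgals3bp (black) and the 3 genes closest to each (coloured); lines only join the points of a gene, and the vertical scales differ. The Gpnmb panel shows the high control 3 and low control 4 that Fabp5, Cst7 and Axl share. The Lgals3bp panel shows the same order over a narrower range, and the Lgals3 panel is also flatter among the controls.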

How the data were processed

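RNA of integrity number 8 or higher, 5.775 ng per sample, was amplified with the NuGEN Pico system and hybridised to 1 array per sample, per the labels' protocols. The values deposited by the authors are log2 expression values per probe set, which the submitters' processing notes attribute to RMA, with no software or version named in the labels. That the scale is log2 was judged from the range of values, 2.04 to 13.99. RMA equalises arrays and compresses low signal. Of 28874 probe sets, 21789 had 1 gene symbol, 1621 several and 5464 none; 21698 matched a RefSeq gene number (GRCm38.p6) and 0 symbols changed. The probe set with the highest mean stood for each of 19938 genes.

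Knockout was compared with control (4 and 4 arrays) with limma 3.58.1 in R 4.3.3 (lmFit, eBayes, no covariate, no filter), adjusting p by Benjamini-Hochberg across all genes and calling those under 0.05. The precision is limited by the number of arrays. Exact permutation tests used scipy 1.17.1, and figures matplotlib 3.10.9. Fits were tested on simulated data. The members and the 5 partner and 10 marker lists were chosen with earlier results of these data known. Named genes were all members, every called gene of the lists, the one with the lowest p where none was called, and the 3 genes closest in pattern to each member with a log2 change of at least 1, leaving out predicted genes, clones, small RNAs and pseudogenes. Other markers are named for the identity check or to describe low or high signal. Summed levels are sums of linear values.

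The 19 alternatives covered scaling (quantile, median centring, cyclic loess), dropping dim genes, averaging probe sets, a robust prior with an intensity trend, weighting of arrays, a block on the replicate number, leaving out each array or 2 sets of arrays, and a stricter adjusted p under 0.01. Deviations from the group means correlated at 0.158, -0.065, 0.006 and 0.008 between same-numbered arrays. Such correlations cannot decide whether the replicate numbers pair the samples, and the main fit treats the samples as unpaired.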

Additional observations from a re-analysis of the deposited data

Results flagged for a closer look

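Among 56 genes examined for a single array far from its group, in 112 groups of 4 arrays, 6 groups held an array whose gap to the nearest other array exceeded Dixon's 95% critical value as a share of the group's range; chance gives about 1 in 20 groups. Itga5 in knockout 2 was at 7.57, below the other knockout arrays, with a gap of 0.925 of the range. Mgat1 in control 3 was at 8.20, below the other controls (0.915). Hint1 in control 3 was at 8.75, above the other controls (0.842). Csf1r in knockout 3 was at 12.26, below the other knockout arrays (0.984), Cspg4 in control 2 at 5.38, below the other controls (0.945), and Flt1 in control 3 at 6.53, above them (0.917). None of the 8 measured genes was among them.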

How the results depend on the processing

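The calls of Gpnmb, Lgals3 and Lgals3bp held under all 19 alternatives, with log2 changes of 2.37 to 3.30, 0.89 to 1.17 and 1.50 to 1.89, so 3 genes were called higher throughout. The 1 lower gene, Lgals8, ranged from -0.65 to -0.42; the count was 0 to 1 with single arrays left out, and 0 at an adjusted p under 0.01. Signs turned only for uncalled genes, with single arrays left out: Lgals1 ranged from -0.00051 (without control 1) to 0.36, and Lgals9 from -0.01 (without knockout 3; -0.0014 without control 1) to 0.07.

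At an adjusted p under 0.01, 567 genes were higher and 358 lower over all genes, galectin partners had 1 higher and 1 lower, and regulators 0 higher. Without control 1, control 3 and knockout 2 these were 649, 494, 1, 1 and 0. Galectin partners had 1 higher after quantile normalization, Wnt genes 1 lower without dim genes (Fzd4 was not tested there), and regulators 2 higher with the mean of probe sets. With single arrays left out, the genes lower over all genes numbered 507 to 960, and galectin partners 1 to 2 higher and 1 to 4 lower, and regulators 0 to 1 higher.

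The replicate number as a block (replicate block) kept 3 higher and 1 lower gene among the members. Whether the numbers pair the samples is not known. Of 8 arrays 2 correlated best with their own number, which is what random matching gives on average. Over all genes the block gave 1029 higher and 826 lower. Itgb5 (limma adjusted p = 0.0694), Mertk (0.0556) and F13a1 (0.0584) lost their calls under it. Over the alternatives of 56 genes (the 8 measured members, Hsd17b4, the called genes of the lists and the genes closest in pattern), 960 values kept their direction and side of the threshold, 95 lost the call and 3 changed sign.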
